A study of Mus musculus with 4 samples.

Results

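Complement activation components are the proteins that start the complement cascade and carry it to the cleavage of C3. The genes C1qa, C1qb, C1qc, C1ra, C1s, C2, C3, C4b, Cfb and Masp1 were taken by symbol from the count tables, 10 of 38924 listed genes, and all 10 had enough reads to be tested among 16334. RNA of kidney tissue was sequenced from female CB-17 SCID mice on the Balb/c background. SCID hosts largely lack working lymphocytes of the B and T lineages and make little or no antibody of their own. Controls were given saline, and the treated group received immune complexes of IgG bound to galactose-deficient IgA1 (IgG-Gd-IgA1), which is the form of IgA1 bound by autoantibodies in IgA nephropathy. Both groups were dosed by tail vein 3 times in a period of 7 days, with harvest of kidneys given the complexes on the day after the last dose, and each group had 2 libraries. The labels used here give no age, and no label says whether the libraries of a group are separate animals. The p-values therefore reflect only how far these libraries spread, which may be technical. The comparison asks what the complexes do to kidney gene expression in this passive model.

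The classical route begins when C1q, a hexamer of trimers built from A, B and C chains, binds antibody in complexes. C1q then activates the proteases C1r and C1s, which cut C4 and C2 to form a C3 convertase. The lectin route reaches the same C4 and C2 through MASP proteases bound to mannose-binding lectin or ficolins, and the alternative route pairs the C3 fragment C3b with factor B. Most plasma complement comes from the liver. Kidney tubule cells are known to make C3, C4 and factor B locally, and C1q comes mainly from macrophages and related myeloid cells. In human IgA nephropathy the alternative and lectin routes are the ones usually described in glomeruli.

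C3 and C4b share an internal thioester, the bond by which their fragments attach to targets. The coding stretches that hold it are shown because C3 and C4b were both higher in the immune complex libraries. Capitals mark the 4 codons of the thioester site, and both stretches lie on the minus strand of GRCm38 in a single exon, at chr17:57215820-57215879 for C3 and chr17:34734457-34734516 for C4b (GENCODE M21 transcripts).
C3: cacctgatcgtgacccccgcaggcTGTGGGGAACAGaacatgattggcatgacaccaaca
C4b: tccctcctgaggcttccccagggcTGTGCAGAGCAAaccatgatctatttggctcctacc

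Promoter windows from 250 bases before to 50 after the annotated start were found for 5 of the 10 genes in RefSeq (GRCm38.p6). No window was matched for C1qa, C2, C4b, Cfb and Masp1. The windows of C3, the gene with the lowest p-value, and of C1qb and C1qc, neighbours in a gene cluster on chromosome 4, are shown with motif matches in capitals. They lie on the minus strand at chr17:57228087-57228386, chr4:136886151-136886450 and chr4:136892865-136893164.
C3: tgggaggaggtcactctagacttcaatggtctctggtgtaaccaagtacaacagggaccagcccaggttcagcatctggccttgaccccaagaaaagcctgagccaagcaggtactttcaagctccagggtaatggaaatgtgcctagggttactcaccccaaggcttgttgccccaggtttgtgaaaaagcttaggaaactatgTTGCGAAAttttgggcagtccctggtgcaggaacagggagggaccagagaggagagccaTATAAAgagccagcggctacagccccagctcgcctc
C1qb: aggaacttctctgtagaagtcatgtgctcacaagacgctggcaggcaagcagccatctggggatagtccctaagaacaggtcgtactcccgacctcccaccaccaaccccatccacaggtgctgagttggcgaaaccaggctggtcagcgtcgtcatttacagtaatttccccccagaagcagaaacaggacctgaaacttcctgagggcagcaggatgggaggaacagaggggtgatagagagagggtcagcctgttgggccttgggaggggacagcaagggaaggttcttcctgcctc
C1qc: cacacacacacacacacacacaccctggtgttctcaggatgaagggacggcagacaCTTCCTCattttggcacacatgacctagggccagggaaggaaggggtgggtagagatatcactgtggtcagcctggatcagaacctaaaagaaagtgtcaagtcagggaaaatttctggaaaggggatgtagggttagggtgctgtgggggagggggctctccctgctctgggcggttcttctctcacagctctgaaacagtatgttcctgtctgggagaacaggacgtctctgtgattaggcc

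Motifs were searched on both strands, namely those of NF-kB, C/EBP (TTGCNNAA), GAS (TTCNNNGAA) and ISRE, the PU.1 motif, spelled GAGGAAG, and the TATA box, spelled TATAAA. The C3 window held a C/EBP match 45 to 38 bases before the annotated start, a motif found in 10.8% of 32851 mouse promoter windows, and a TATA match 14 to 19 bases after it, found in 13.6%. The C1qc window held a PU.1 match on the other strand (13.6% of windows), and none of the searched letters lay in the C1qb window. The remaining motifs were present in 0.411% (NF-kB), 8.3% (GAS) and 3.44% (ISRE) of windows and in none of the printed ones. Among windows not printed, that of C1ra held a C/EBP match and a GAS match, both after its annotated start. A window of C1s held a C/EBP match before its start.

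The libraries held 19675879 to 22791960 reads assigned to genes, and all 8 proximal tubule markers were read in each, at a summed level of 9909 to 10299 CPM (gene reads scaled to library depth by TMM). For 5 of the 10 genes other gene models overlap them or nearly repeat their sequence, so their reads are uncertain. Of all Cfb reads, 2.51% were placed in Cfb alone, and the share in single libraries was 2.34% to 2.76%, with 95% Wilson intervals between 2.03% and 3.14% that cover counting error only. In the annotation 66.9% of 100-base windows of Cfb transcripts are also found in Gm20547, a model that joins Cfb and C2, and that model received only 32 to 65 reads per library. C2 had 13.9% unique reads and shared 35.5% of windows with the same model. C1s had 32.4% unique reads, with windows shared with its copy C1s2 (6.87%) and with Gm16567 on the opposite strand (10.5%). The sources used here do not say whether strand was used, so reads of Gm16567 and C1s cannot be told apart. C1ra had 46.9% unique reads and shared 34.5% of windows with C1rb, and C4b had 64.0% and shared 15.2% with C4a. For C1qa, C1qb, C1qc, C3 and Masp1 at least 99.0% of reads were unique and no window was shared.

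**Figure D1:**
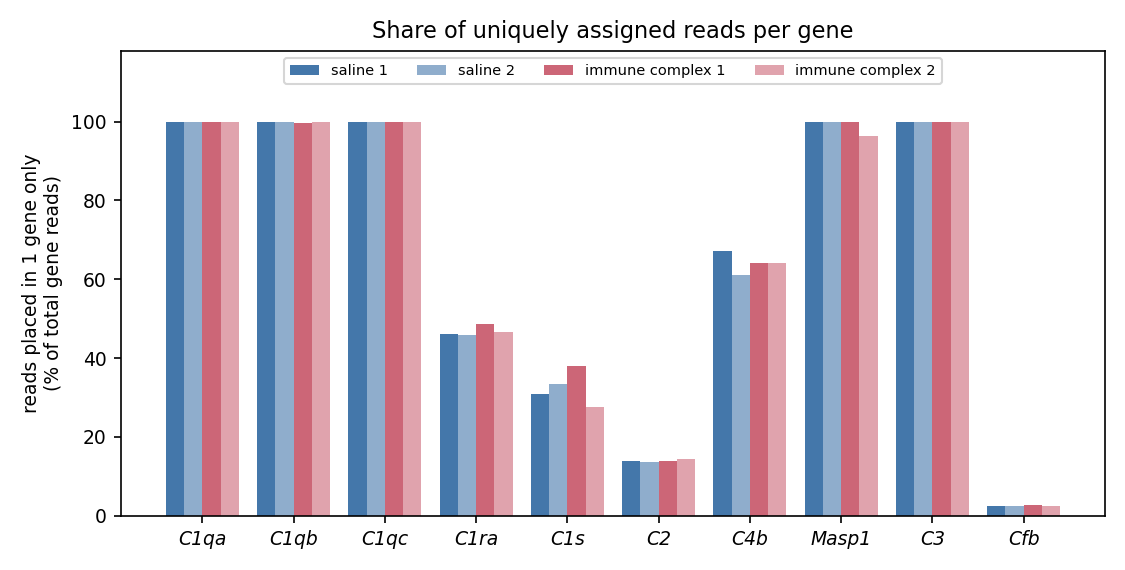
Bars give the percent of total gene reads placed in a single gene (y axis) for each of the 10 genes (x axis) in each of the 4 libraries. Cfb sits at 2.34% to 2.76%, C2 near 13.9%, and C1qa, C1qc and C3 at or near 100%.

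Gene levels were compared per length, by the authors' RPKM (exon reads scaled to exon length and library depth). Cfb was first and C3 was next in each of the 4 libraries, at a mean RPKM of 121.2 and 49.9, and Cfb ranked 419 and C3 1048 among 22901 genes with any RPKM. C1qa (15.6), C2 (14.9), C4b (13.3) and C1qb (11.1) followed, and in this order each gene's range over the 4 libraries overlapped that of the next, so their order is not resolved, although C1qb was below the other 3 in each library. C1qc (5.77), C1ra (5.68) and C1s (3.92) came after them, with ranges of neighbours overlapping, and C1s exceeded C1ra in immune complex library 2. Masp1 was last, at 0.150, by a gene model with 1 annotated transcript. All 8 genes listed under the classical and lectin routes stood under Cfb and C3 per length. Only 2.51% of Cfb reads were unique, so its place rests on how shared reads were assigned, which is not stated.

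Across all genes, edgeR's quasi-likelihood test called 0 of 16334 at an adjusted p of 0.05 (0.0%), and 749 had an unadjusted p under 0.05 (4.59%). Among the 10 complement genes 0 were called, 1 (C3) had an unadjusted p under 0.05, and DESeq2 and limma-voom also called 0 of them. The fitted log2 fold change was above 0 for 7 and below 0 for 3, where 51.9% of all tested genes were above 0. Other fits likewise called 0 of the 10, while they called 0.568% (DESeq2), 0.337% (replicate block), 0.98% (crossed replicate block), 0.00795% (no filter on low counts), 0.00657% (unique gene reads), 0.276% (saline replicate 1 left out) and 1.65% (saline replicate 2 left out) of the genes tested. The groups did not overlap for 4 of them, all higher (C3, C1s, C4b and C1qc), where 15.4% of all tested genes had non-overlapping groups with immune complexes higher, 14.6% lower and 30.0% either. The median log2 fold change of the 10 was 0.27, beside 0.01 over all tested genes, and without immune complex replicate 1 it was 0.11.

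**Figure D2:**
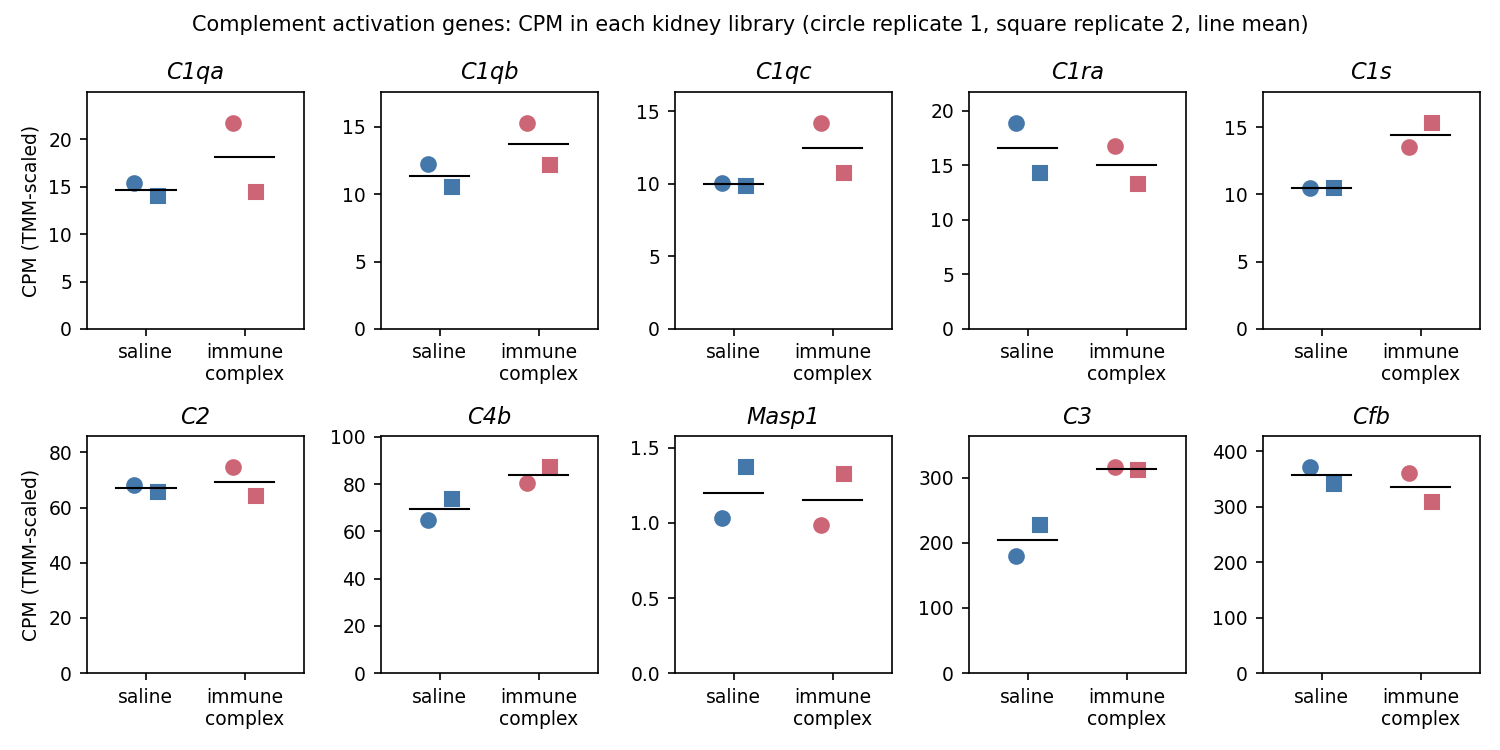
Each panel gives the TMM-scaled CPM (y axis, from 0) of a gene in the 2 saline and 2 immune complex libraries, as circles for replicate 1, squares for replicate 2 and a line for the mean. C3 stands at 180.1 and 227.4 CPM after saline and at 315.9 and 310.8 CPM with immune complexes, while for Cfb and C2 the groups overlap.

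C3 is the component on which all routes converge. It stood at 180.1 and 227.4 CPM in the saline libraries 1 and 2 and at 315.9 and 310.8 CPM in immune complex libraries 1 and 2. The immune complex libraries lay close together and above both saline libraries, which were further apart. The fitted log2 difference was 0.62 ± 0.19 (SE), with a 95% interval from 0.16 to 1.08, an unadjusted p of 0.0160 and an adjusted p of 0.941 in edgeR. The authors' deposited table gives C3 an adjusted p of 0.376, and 80 of the 14877 genes with an adjusted p there are under 0.05 (0.538%). C3 was 0.46 higher without saline replicate 1 and 0.79 higher without saline replicate 2.

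All 9 adipocyte markers had a log2 fold change above 0, 7 of them with non-overlapping groups (15.4% of all tested genes), 3 with an unadjusted p under 0.05 (4.59% of all) and 0 called by edgeR. Cidea and Ucp1, markers of brown fat, overlapped between the groups. The summed level of the list was 54.7 and 475.3 CPM in the saline libraries 1 and 2 and 1498 and 1059 CPM in immune complex libraries 1 and 2. Saline 1 was the lowest library on both measures, and immune complex 1 the highest. Cfd, which encodes factor D, the protease that cuts factor B and is made chiefly by adipocytes, is one of those markers and ran from 1.03 CPM in saline 1 to 421 CPM in immune complex 1. Fabp4, a fatty acid carrier and the most abundant of the list by CPM, stood at 52.6 and 238.2 CPM after saline and 625.9 and 501.5 CPM after immune complexes. The part of fat RNA in the C3 difference was not tested. Of 10 acute phase genes, 6 were tested, 4 with a log2 fold change above 0. In edgeR 3 of the 6 had an unadjusted p under 0.05 (4.59% of all tested genes), and 1 of these, lipocalin (Lcn2), was lower, at -0.88 ± 0.29. Haptoglobin (Hp), of lowest p, differed by 3.81 ± 0.95, and Saa1 and Saa2 had 0 reads in all 4 libraries.

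Cfb encodes factor B, the catalytic partner of C3b in the alternative route. Its level was 371.3 and 341.3 CPM after saline and 360.9 and 308.9 CPM after immune complexes. The groups overlapped, and the log2 difference of -0.09 ± 0.18 had a 95% interval from -0.53 to 0.35. With reads unique to Cfb, 158 to 222 per library, the difference was 0.01, and with the Gm20547 reads added it was -0.09. Within each library C3 could be set against Cfb without any scaling between libraries. The ratio of their RPKM values was 0.268 and 0.369 in saline and 0.485 and 0.557 with immune complexes. All immune complex values exceeded the saline ones, with a difference of 0.73 on the log2 scale. An exact two-sided permutation test of 2 against 2 can go no lower than p = 0.333, the value it gave here, and over the 6 ratios computed the adjusted p was 1.

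C4b encodes C4, the classical and lectin route relative of C3 that carries the thioester printed above. It stood at 65.0 and 73.7 CPM after saline and 80.5 and 87.2 CPM after immune complexes. The groups did not overlap, though the gap between them was smaller than the gap between the saline libraries. Its log2 difference was 0.27 ± 0.17 and did not pass (edgeR adjusted p = 1.0). The copy C4a differed by 0.65 ± 0.27 at 84 to 158 reads per library, and C4b with C4a added differed by 0.30.

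C2 supplies the protease of the classical and lectin C3 convertase and is the paralogue of factor B, next to it on chromosome 17. Libraries held 68.3 and 65.7 CPM after saline and 74.7 and 64.1 CPM with immune complexes. The immune complex libraries lay on either side of both saline libraries, and the log2 difference was 0.05 ± 0.17 (95% interval -0.36 to 0.46). Without immune complex replicate 1 it was -0.06. Set against C4b, its partner in the convertase, C2 had RPKM ratios of 1.33 and 1.10 in saline and 1.16 and 0.948 with immune complexes, and these overlapped.

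C1ra and C1s encode the proteases that sit together in the C1 complex, and their genes lie on chromosome 6, at chr6:124512632-124523440 on the plus strand and chr6:124530345-124542359 on the minus strand. C1s stood at 10.5 CPM in both saline libraries and at 13.5 and 15.3 CPM in immune complex libraries 1 and 2. C1ra stood at 18.9 and 14.3 CPM after saline and at 16.8 and 13.3 CPM with immune complexes. C1s thus separated the groups, and C1ra did not. The log2 difference was 0.46 ± 0.21 for C1s (unadjusted p = 0.0622, edgeR adjusted p = 1.0) and -0.14 ± 0.24 for C1ra. Left-out libraries moved C1s between 0.37 and 0.55, whereas C1ra ran from -0.34 to 0.07 and so on both sides of 0. The ratio of C1s to C1ra in RPKM was 0.489 and 0.641 in saline and 0.707 and 1.03 with immune complexes, without overlap (exact permutation p = 0.333, the smallest possible). From unique reads alone that ratio was 0.373 and 0.532 against 0.626 and 0.679, also without overlap. C1s with the reads of C1s2 and Gm16567 added differed by 0.42, and C1ra with C1rb added by -0.13.

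**Figure D3:**
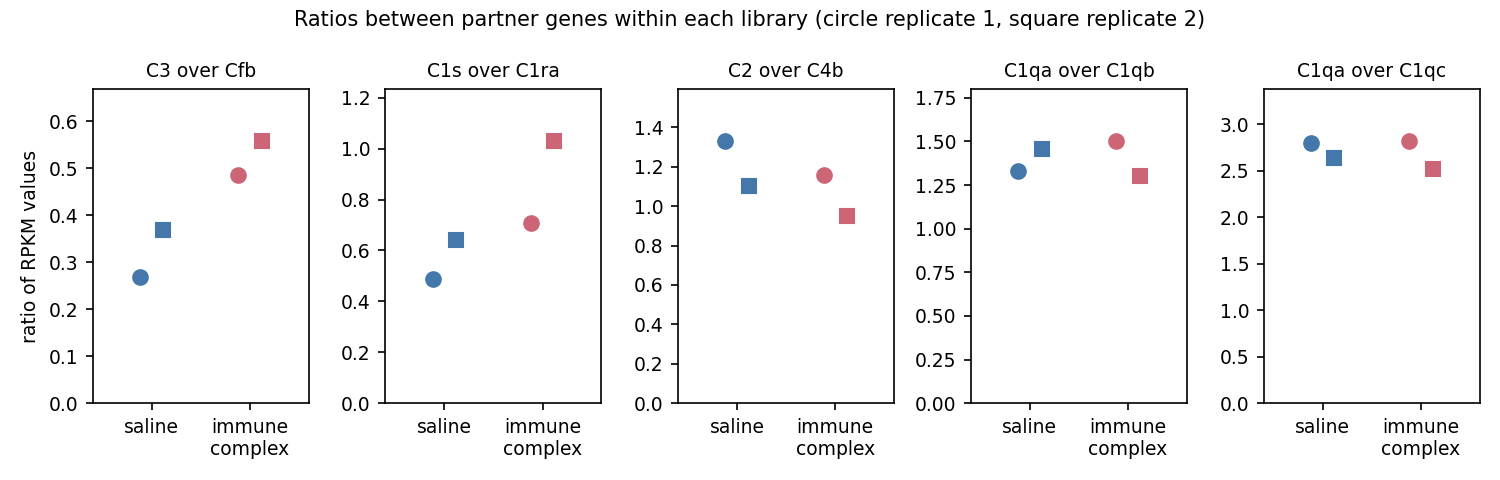
Ratios of RPKM values between partner genes (y axis, from 0) in each library, with circles for replicate 1 and squares for replicate 2. C3 over Cfb and C1s over C1ra are higher in both immune complex libraries than in either saline library, while C2 over C4b and the C1q chain ratios overlap.

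Masp1 encodes the lectin route protease MASP-1, the protease MASP-3 and the fragment MAp44 by alternative splicing, and gene reads do not tell these products apart. It had 21 and 29 reads after saline and 22 and 28 reads with immune complexes, or 1.03 and 1.37 against 0.986 and 1.32 CPM. The groups overlapped, and the log2 difference of -0.06 ± 0.41 had the widest 95% interval of the 10 genes, from -1.03 to 0.91. Introns held 65.0% of its reads, between 51.7% (95% Wilson interval 34.4% to 68.6%) and 82.1% (64.4% to 92.1%) in single libraries. C2, at 15.1%, was the next highest, and the other 8 genes had at most 3.46%. Exon reads of Masp1 numbered 5 to 14 per library. The gene model used for these counts holds 1 annotated transcript of Masp1 with 2752 exon bases. Its GENCODE M21 transcripts hold 9727 different 100-base windows. Reads in exons outside that model may have been counted as intron, so the intron share, exon reads and RPKM of Masp1 depend on the model. This was not tested.

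The C1q chains are encoded side by side on the minus strand of chromosome 4, C1qb at chr4:136880129-136886187, C1qc at chr4:136889804-136893065 and C1qa at chr4:136895917-136898803. C1qa stood at 15.3 and 14.0 CPM after saline and at 21.7 and 14.5 CPM after immune complexes. C1qb stood at 12.2 and 10.5 CPM against 15.3 and 12.2 CPM, and C1qc at 10.1 and 9.89 CPM against 14.2 and 10.8 CPM. In all 3 genes immune complex 1 was the highest library, and immune complex 2 lay near the saline libraries. The log2 differences were 0.30 ± 0.25, 0.28 ± 0.23 and 0.32 ± 0.23, and none passed (edgeR adjusted p = 1.0 for each). Without immune complex replicate 1 they were -0.02, 0.10 and 0.11, and without immune complex replicate 2 they were 0.56, 0.43 and 0.51.

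Ratios between the chains overlapped between the groups. C1qa over C1qb in RPKM was 1.33 and 1.46 in saline and 1.5003 and 1.30 with immune complexes, and C1qa over C1qc was 2.79 and 2.63 against 2.81 and 2.52. Between groups these ratios differed by 0.01 and -0.03 on the log2 scale, less than their spread between replicates.

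**Figure D4:**
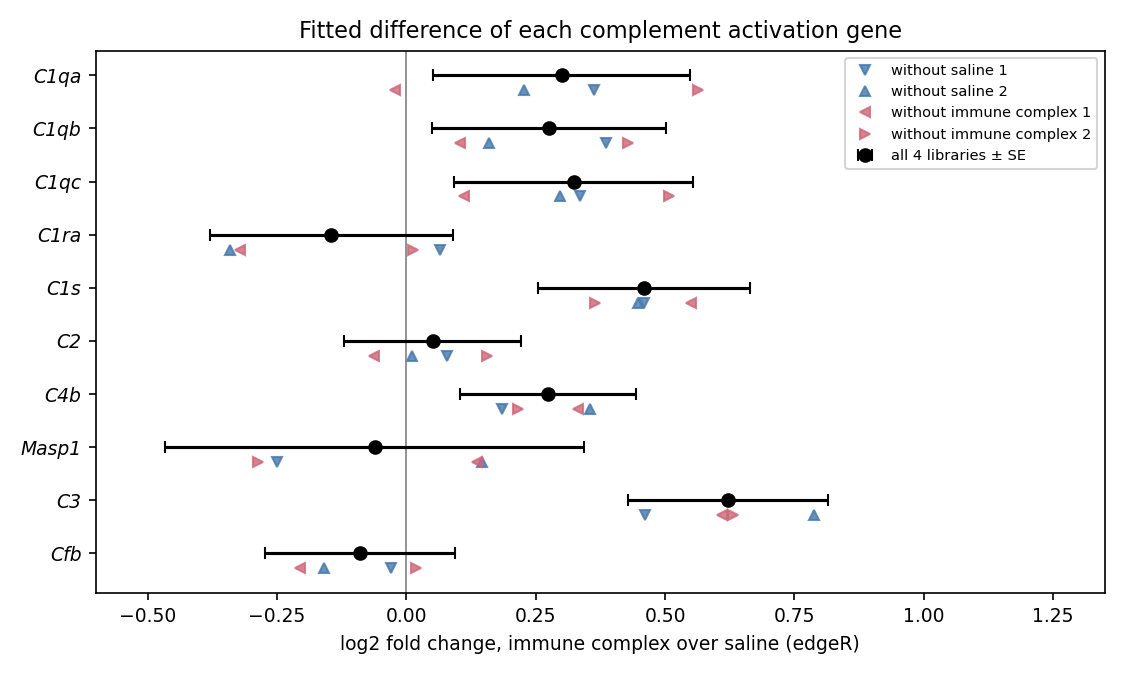
Black points give the edgeR log2 fold change of immune complex over saline (x axis) for each of the 10 genes with its SE, and triangles below give the value with each library left out. C3, C1s, C4b, C1qb and C1qc stay above 0 in every such fit, while C1qa, C1ra, C2, Masp1 and Cfb have values on both sides of 0.

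Genes of macrophages, the main source of C1q, were set beside the chains. All 16 macrophage markers had a log2 fold change above 0 (median log2 fold change 0.62), 12 of them with non-overlapping groups, 6 had an unadjusted p under 0.05 and 0 were called by edgeR. Over all tested genes 51.9% were above 0, 15.4% were higher without overlap and 4.59% had such a p. Mrc1 (643 to 1062 reads per library) and Cx3cr1 (789 to 1054) were among the 12 by total gene reads, introns included. Their RPKM, from exon reads, was only 0.385 to 1.14 and 1.02 to 1.62. The part of intron reads in their differences was not tested. Adgre1 (the F4/80 antigen, listed as Emr1) stood at 3.54, 3.41, 7.17 and 9.78 CPM after saline 1 and 2 and immune complex 1 and 2. Csf1r, the receptor for macrophage growth factor and the marker with the highest CPM of the list, stood at 80.0, 99.4, 77.6 and 105.6 CPM, and Mertk, a receptor for dying cells, differed by 0.09 ± 0.20. Adgre1 was higher in both immune complex libraries, whereas Csf1r overlapped between the groups. Lyz2, the lysozyme gene, had RPKM values of 22.6 and 16.4 after saline and 30.6 and 42.7 after immune complexes, and differed by 0.98 ± 0.24. It was the highest of these genes per length except in saline 2, where Csf1r had an RPKM of 20.1. In bulk tissue, a change in the number of cells and a change in RNA per cell cannot be told apart.

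The chains and the markers differed most in immune complex library 2. There the chains stood between -0.02 and 0.11 from their saline mean on the log2 scale, and the markers had a median of 0.46, with 14 of 16 above every C1q chain. In immune complex library 1 the chains stood at 0.43 to 0.57 and the markers at a median of 0.63, with 9 of 16 above every chain. Summed C1q was 37.6 and 34.4 CPM after saline and 51.2 and 37.4 CPM with immune complexes. Relative to the mean log2 CPM of the markers it was 2.44 and 2.35 in saline and 2.34 and 1.82 with immune complexes, a difference of -0.31 that came mostly from library 2 (-0.05 without it, exact permutation p = 0.333 with all 4). These levels use total gene reads, introns included. From exon reads the values were 2.96 and 3.01 in saline and 2.87 and 2.24 with immune complexes, a difference of -0.43. By total gene reads against Adgre1 alone the difference was -0.97, and against Csf1r alone it was 0.26 and so in the other direction.

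**Figure D5:**
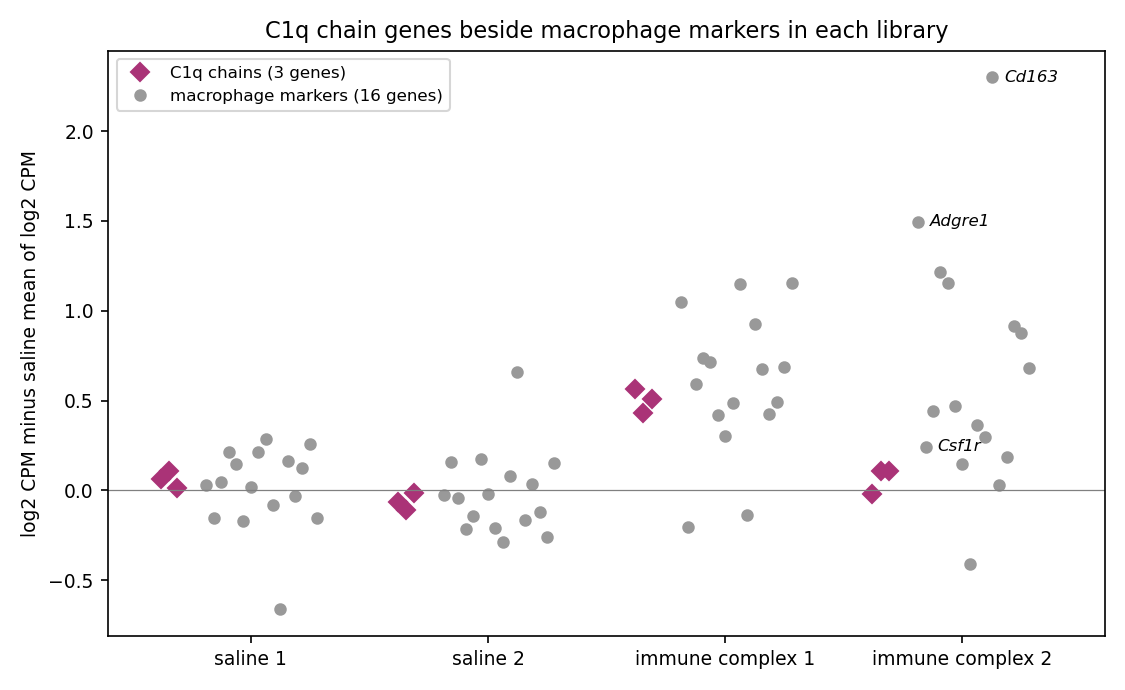
Points give the log2 CPM minus the saline mean (y axis) in each library for the 3 C1q chain genes (diamonds) and the 16 macrophage markers (circles). In immune complex 1 the chains lie among the markers, 9 of which are above them, and in immune complex 2 they lie near 0, below 14 of the 16.

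Of 37 other complement genes in 4 lists, 27 had enough reads, and 16 were higher and 11 lower. In edgeR 0 were called, with 1 at an unadjusted p under 0.05. Over all tested genes 51.9% were above 0 and 4.59% had such a p. The groups did not overlap for 8 that were higher and 2 that were lower, where 15.4% and 14.6% of all tested genes did so. Their median log2 fold change was 0.29, beside 0.01 over all tested genes. Among initiators and early proteases (7 tested, 3 higher and 4 lower), Cfp, which encodes properdin, the stabiliser of the alternative convertase, differed by 0.50 ± 0.32 and Cfd by 2.57 ± 1.45. Terminal components, which form the membrane attack complex, had 4 tested members, 3 of them higher. C6 differed by 0.86 ± 0.56, at only 4 to 12 reads per library, and C8a by 0.31 ± 0.42. Hc, the gene of C5, had 3 or 4 reads in each library and was not tested. C9 had 2 to 7 reads in each library and was not tested either.

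Regulators had 10 tested members, 4 higher and 6 lower, with a median of -0.02. The membrane regulator Cd55 differed by 0.29 ± 0.34, Cd46 by 0.46 ± 0.46 and the C1 inhibitor gene Serping1 by -0.48 ± 0.29. Cd46 had only 14 to 35 reads per library. All 6 tested receptors were higher, with a median of 0.42 and non-overlapping groups in 4, where 51.9% of all tested genes were above 0 and 15.4% were higher without overlap. Itgam, a chain of complement receptor 3 and itself a myeloid marker, differed by 1.30 ± 0.49 (unadjusted p = 0.0340 in edgeR). Itgax differed by 0.53 ± 0.41, and the anaphylatoxin receptor genes C3ar1 and C5ar1 by 0.37 ± 0.41 and 0.29 ± 0.53. Reads per library were few, 13 to 65 for Itgam and 10 to 21 for C5ar1. None of these genes passed edgeR's test over all genes.

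Markers of other possible sources were read beside the 10 genes. Of 10 fibroblast markers, which mark cells that also make C1r, C1s and C3, 5 were higher and 5 lower. The groups did not overlap for 4 that were higher and 3 that were lower, where 15.4% and 14.6% of all tested genes did so. In edgeR 1 had an unadjusted p under 0.05 (4.59% of all). Their summed level, which adds higher and lower members together, was 177.0 and 192.0 CPM after saline and 185.9 and 178.5 CPM with immune complexes. The summed level of 9 hepatocyte markers was 64.7 and 91.6 against 78.5 and 99.1 CPM. Of its 6 tested members 4 had a log2 fold change above 0 and 2 below, with a median of 0.39. The most abundant by CPM were Serpina1a, at 30.4 and 29.2 CPM after saline and 38.04 and 39.6 CPM after immune complexes, and Ttr, which overlapped. Albumin (Alb) was lower, at 10.6 and 14.3 CPM against 9.77 and 6.85 CPM. Neither summed level separated the groups. All 6 urothelial markers had a log2 fold change below 0, where 51.9% of all tested genes were above 0. The groups did not overlap for 1 of them, where 14.6% of all tested genes were lower without overlap. That gene was Psca, at 46.3 and 26.8 CPM after saline and 3.76 and 4.30 CPM after immune complexes. The other 5 overlapped, with saline 1 as their lowest library. The part of these cell types in the differences of the 10 genes was not tested.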

How the data were processed

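The deposited tables give raw counts per gene, and total gene reads (exon plus intron) were tested. RPKM values are the authors', per the file headers. The authors' deposited table of their comparison holds for each gene a log2 fold change with raw and adjusted p-value, a mean of size-factor-scaled signal and a test score, per the file headers. Its columns are coded saline over immune complex. STAR 2.5.2b, DESeq2 and the build GRCm38 are named, without their roles, by the submitters' processing notes. The counter, the annotation release and any use of strand are not stated there.

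Counts were fitted with edgeR 4.0.16 under R 4.3.3 (TMM scaling, filterByExpr, glmQLFit and glmQLFTest), 2 against 2 libraries, two-sided, with Benjamini-Hochberg adjustment over 16334 genes at 0.05. Residual degrees of freedom were 2, with 4.61 from the prior. Each SE was taken as log2 fold change over root F. DESeq2 1.42.0 and limma 3.58.1 were alternatives, as were exon reads, unique reads, no filter, other size factors, a replicate block and leaving out each library. The fit was tested on simulated data. Log2 CPM of markers used a prior count of 2.

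The genes and the lists (other complement genes, acute phase, interferon-gamma response and cell markers) were chosen with earlier results of these data known. Named genes are the 10 members, in each list of other complement, acute phase and interferon-gamma genes the 2 of lowest p, plus Cfd, Hc, Cd55, Serping1, C3ar1 and C5ar1, up to 2 of the most abundant (by CPM) of a marker list, and the 3 genes nearest in profile to C3 and to C1q. A gene that the rule also names is not reported here. Adgre1, Lyz2, Mrc1, Cx3cr1, Alb, C9, Cidea, Ucp1, Psca, Saa1 and Saa2, and the pairs of genes set in ratio, were chosen after their values were seen.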

Additional observations from a re-analysis of the deposited data

How the results depend on the processing

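None of the 10 complement genes was called under any alternative run. The count over all genes was 0 in edgeR, with DESeq2 size factors, exon reads or limma-voom. It was 91 with DESeq2, 2 without a filter on low counts, 1 with unique gene reads and 0 to 279 with single libraries left out, 47 without saline replicate 1 and 279 without saline replicate 2. With the replicate number as a block it was 55. Replicate numbers are shared in the titles without a stated pairing, and the deviations of same-numbered libraries correlated at -0.13. A crossed replicate block, chosen after seeing the data, gave 160 genes. The members' median stayed between 0.11 and 0.29 with single libraries left out. Of 124 alternative values of single complement genes, 116 kept their direction and 8 reversed. Cfb was 0.014 with unique gene reads, and the others came from left-out libraries, where C1qa ran from -0.023 to 0.56, C1ra from -0.34 to 0.066, C2 from -0.062 to 0.16, Masp1 from -0.29 to 0.15 and Cfb from -0.21 to 0.018. Masp1 had too few exon reads to be fitted. C1q over macrophage markers was -0.43 with exon reads, 0.26 with Csf1r alone, and -0.57 to -0.05 with single libraries left out. By total gene reads per exon length 8 of 10 genes kept their place, C1qa and C2 changing over. The cause of these moves was not tested. Depth limits Masp1, at 21 to 29 reads a library, most.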

Other observations

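Of 14 tested interferon-gamma response genes, 13 were lower with immune complexes (median log2 fold change -0.17), where 51.9% of all tested genes were above 0. The groups did not overlap for 3 that were lower and 1 that was higher, where 14.6% and 15.4% of all tested genes did so. The summed level of the list overlapped, at 275.8 and 223.5 CPM after saline and 183.7 and 243.5 CPM with immune complexes. Of these genes edgeR called 0, with 0 at an unadjusted p under 0.05. Tap1, a peptide transporter, differed by -0.46 ± 0.27 and the proteasome subunit gene Psmb9 by -0.58 ± 0.35. Of 6 tested acute phase genes 4 were higher (median 0.70) and edgeR called 0, with 3 at an unadjusted p under 0.05 (4.59% of all tested genes). Haptoglobin (Hp), a liver and fat product, was at 0.197 and 4.68 CPM after saline and 23.97 and 45.1 CPM with immune complexes, and lipocalin (Lcn2) differed by -0.88 ± 0.29. In the remaining marker lists the tested members higher and lower numbered 4 and 4 for proximal tubule, 0 and 7 for other tubule segments, 3 and 3 for endothelium, 3 and 2 for glomerulus, 2 and 2 for mesothelium, 0 and 6 for urothelium, 4 and 0 for neutrophils, 6 and 0 for red blood cells and 9 and 0 for adipocytes. Over all tested genes 51.9% were above 0. All 6 red blood cell markers were higher without overlap (15.4% of all tested genes), 5 of them with an unadjusted p under 0.05 in edgeR (4.59%). Of the markers of other tubule segments 3 were lower without overlap (14.6%), and 2 had such a p. In both lists edgeR called 0.

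The genes whose profile over the 4 libraries lay nearest to C3, by root mean square difference of centred log2 CPM among 9214 genes with at least 10 CPM, were Arl4a (0.031), Mgst1 (0.046) and Ptp4a1 (0.057). Nearest to summed C1q were Bnc2 (0.014), Ehd3 (0.036) and Slc36a1 (0.038). With 4 libraries such nearness is a description only.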
